A study of Mus musculus with 16 samples.

Results

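Mechanical load on a muscle fiber is sensed at the titin filament, at the Z-disc and at the costamere, and 10 genes for proteins at these places were followed in mouse muscles with and without the ubiquitin ligase UBR4. They are Itga7 and Itgb1, the chains of the laminin receptor α7β1 integrin, with its partner Itgb1bp2 (melusin), the LIM-domain genes Csrp3 and Fhl1, the ankyrin repeat genes Ankrd1, Ankrd2 and Ankrd23, and the Xin genes Xirp1 and Xirp2. The genes were chosen by name, with earlier results of these data known, and all 10 were found among the 47643 genes of the table. RNA was sequenced from 16 tibialis anterior muscles, a muscle of the lower hindlimb, with 4 muscles in each of 4 groups. All mice are labelled as C57BL6/J males, and the groups are WT and UBR4 mKO at 6 months and at 24 months of age. In UBR4 mKO mice, both Ubr4 alleles are floxed (Ubr4 fl/fl) and Cre is switched on by tamoxifen from the ACTA1 promoter, which acts in skeletal muscle fibers. Per the study's methods, WT mice are floxed siblings without Cre, so that both genotypes share the floxed alleles and tamoxifen. All mice received tamoxifen before 6 months of age, so UBR4 mKO muscles of 24 months had lacked UBR4 for longer than those of 6 months. Age and the time since the deletion therefore cannot be told apart in UBR4 mKO muscles. Other cells of the muscle keep Ubr4 in this model.

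As background, α7β1 integrin anchors the muscle fiber to laminin in the basement membrane, and melusin binds the inner tail of β1 integrin and acts as a chaperone-like signal protein under stretch. Csrp3 (muscle LIM protein) sits at the Z-disc, Fhl1 binds titin, and the muscle ankyrin repeat proteins ANKRD1, ANKRD2 and ANKRD23 bind the elastic part of titin and can move to the nucleus. The Xin proteins crosslink actin and are rich at myotendinous junctions and at sites of fiber damage. Ankrd1 is a widely used target of the YAP and TEAD factors, and Csrp3 and Ankrd2 are known to be most abundant in slow fibers.

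In the mouse genome (GRCm38, GENCODE gene spans), Ankrd1 lies at chr19:36111961-36120099 and Ankrd2 at chr19:42036000-42045110, on opposite strands of the same chromosome. Ankrd23 is at chr1:36530188-36536883, Csrp3 at chr7:48830398-48848033, Xirp1 at chr9:120013755-120023598 and Xirp2 at chr2:67446002-67526614. Itga7 is at chr10:128933818-128958282 and Itgb1 at chr8:128685654-128733200, whereas Itgb1bp2 (chrX:101449088-101453541) and Fhl1 (chrX:56731787-56793346) are on chromosome X. Promoter sequence is shown for Ankrd1, Ankrd2 and Csrp3, which had the largest log2 fold changes of the 10 genes at 6 months. They come from RefSeq on GRCm38.p6, which has windows for 7 of the 10 genes (10 start sites, with 250 bases before each start searched). The searched letters were CATTCC for the TEAD motif and CANNTG for the E-box, which myogenic factors bind, together with the CArG box and the MEF2 box, on both strands. The 30-base pieces of the Ankrd1 window are chr19:36120037-36120066 and chr19:36119950-36119979 on the minus strand, both within exons of GENCODE transcripts of Ankrd1, and capitals mark the TEAD motif as read on the gene's strand. The Ankrd2 piece is chr19:42035777-42035999 on the plus strand and the Csrp3 piece is chr7:48848052-48848301 on the minus strand, and capitals in both mark E-boxes.
Ankrd1, distal piece: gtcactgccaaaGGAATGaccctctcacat
Ankrd1, proximal piece: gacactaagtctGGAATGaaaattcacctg
Ankrd2: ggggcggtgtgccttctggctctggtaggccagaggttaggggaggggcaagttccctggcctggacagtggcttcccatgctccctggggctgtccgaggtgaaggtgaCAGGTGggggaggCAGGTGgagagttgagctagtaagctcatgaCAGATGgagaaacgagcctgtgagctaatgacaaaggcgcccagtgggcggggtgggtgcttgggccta
Csrp3: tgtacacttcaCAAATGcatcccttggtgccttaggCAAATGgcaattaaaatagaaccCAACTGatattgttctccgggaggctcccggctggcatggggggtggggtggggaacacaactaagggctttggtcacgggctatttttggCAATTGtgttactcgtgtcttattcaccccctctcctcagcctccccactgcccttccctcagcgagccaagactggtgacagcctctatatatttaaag
The TEAD motif stood in 3 of the 10 windows, 1 each of Ankrd1, Ankrd23 and Itgb1, and 12.6% of all 32851 promoter windows hold it. Ankrd1 had it at 2 places, at -210 and -123 from the start. E-boxes were in 8 of the 10 windows, from 6 of the 7 genes, and 66.2% of all promoter windows hold one. A CArG box was found in 1 window (Fhl1), and 1.47% of all windows hold one, and a MEF2 box in 1 window (Xirp2), against 2.92% of all windows. These matches describe the letters and are not evidence of binding.

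Expression was deposited as TPM, which divides reads by transcript length and sums to 1000000 in every muscle, so the number of reads is unknown and a gene's value depends on what other genes take up. The deleted gene Ubr4 averaged 12.2 ± 2.82 TPM (SD, n = 4) in WT and 5.49 ± 0.749 TPM in UBR4 mKO muscles at 6 months (log2 fold change -1.12, limma adjusted p = 0.00365), and 18.3 ± 1.89 and 9.14 ± 4.33 TPM at 24 months (-1.12, adjusted p = 0.0598), and no UBR4 mKO muscle reached a WT muscle of its age. The UBR4 mKO muscles of 24 months were uneven in Ubr4, at 10.1, 14.6, 4.28 and 7.63 TPM, and the lowest WT muscle of that age had 17.0 TPM. Their coefficient of variation was 47.4%, against 13.7% in UBR4 mKO muscles of 6 months. The part of this in the results at 24 months was not tested. The mitochondrial genes took up 52.6% to 59.7% of the TPM in WT and 46.1% to 49.8% in UBR4 mKO muscles at 6 months. The median gene was shifted by 0.33 (log2) between these genotypes, so values after median-of-ratios scaling, which removes this shift, are given beside those in TPM. Several libraries go against the male label. All 8 libraries of 6 months had Xist, the X-inactivation RNA of female cells, at 0.711 to 23.8 TPM, above every library of 24 months (at most 0.0252 TPM). Summed over 4 Y-linked genes, UBR4 mKO replicate 4 of 6 months had 0.181 TPM, and the libraries of 24 months had at least 34.6 TPM. The WT libraries of 6 months had 4.36 to 25.5 TPM, below the 30.7 to 45.9 TPM of UBR4 mKO replicates 1, 2 and 3. Y-linked RNA thus also differed between the genotypes at 6 months. Results that rest on UBR4 mKO replicate 4 of 6 months are therefore given with and without it, and fits with Y-linked expression as a covariate are named where they change a call. The 7 myofiber markers, such as Des, Ckm and Acta1, summed to 68120 to 93180 TPM over all muscles.

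Over all 16 muscles, Ankrd23 was the most abundant of the 10 genes, with a mean of 2020 TPM, followed by Fhl1 with 940 TPM. Xirp2 (210), Ankrd2 (144) and Itgb1bp2 (138) formed the middle range. Itgb1 (70.3 TPM), Ankrd1 (47.9), Csrp3 (42.8), Xirp1 (42.7) and Itga7 (31.1) were lower. All 10 passed the filter of a mean of at least 1 TPM, which 10628 genes passed. Ankrd23 is uncertain, as its transcript aligned over 99.8% of its length to that of the protein-coding gene Gm42417 with 91.3% identity, and how reads shared by both were counted is not given in the sources used here.

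**Figure D1:**
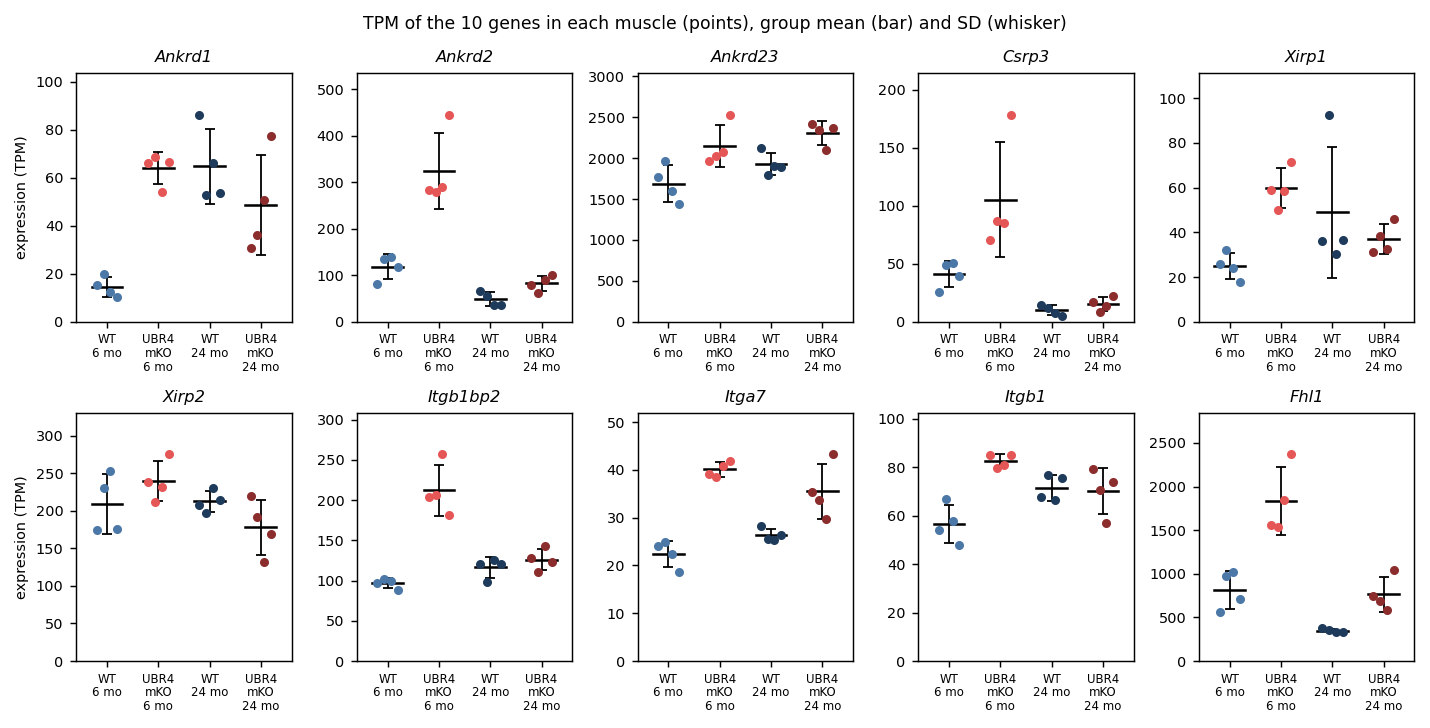
TPM of the 10 genes (vertical axes, from 0) in each of the 16 muscles, by genotype and age, with the group mean as a bar and the SD as a whisker. In WT muscles, Ankrd1 stands at 10.4 to 19.7 TPM at 6 months and at 52.7 to 86.2 TPM at 24 months, whereas Ankrd2, Csrp3 and Fhl1 are lower at 24 months in both genotypes.

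UBR4 mKO was first compared with WT at 6 months, which asks how the genes respond to the loss of UBR4 in young adult muscle. Of the 10 genes, 9 were higher in UBR4 mKO muscles (limma, Benjamini-Hochberg adjusted p under 0.05 over 10628 genes), and Xirp2 did not pass. Over all genes tested, 44.9% were called in either direction and 43.7% were called higher, with 4645 genes higher and 122 lower in TPM and 704 higher and 1082 lower after scaling. The median log2 fold change of the 10 genes was 1.15, against 0.33 for the median gene. After median-of-ratios scaling, 7 of the 10 genes were called higher, against 6.64% of all genes (16.9% in either direction), and Ankrd23, Csrp3 and Xirp2 were not called. In TPM, 9 of the 10 genes were higher in UBR4 mKO muscles with no overlap of the genotypes, as were 39.0% of all genes.

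The integrin chains and melusin were all higher. Itga7 was at 24.0, 24.8, 22.3 and 18.7 TPM in WT muscles and at 39.1, 38.6, 40.8 and 41.9 TPM in UBR4 mKO muscles. Itgb1, the chain that pairs with α7, was at 54.1, 66.8, 57.7 and 47.8 TPM in WT and at 85.3, 79.6, 81.0 and 85.0 TPM in UBR4 mKO muscles. Itgb1bp2 was at 97.1, 102, 99.8 and 88.6 TPM in WT and at 204, 206, 257 and 182 TPM in UBR4 mKO muscles. Every UBR4 mKO muscle was above every WT muscle for these 3 genes. The log2 fold change was 0.84 (SE 0.108, limma adjusted p = 7.4e-05) for Itga7, 0.56 (SE 0.107, adjusted p = 0.00134) for Itgb1 and 1.12 (SE 0.109, adjusted p = 9.6e-06) for Itgb1bp2. After scaling they were 0.49 (adjusted p = 0.000349), 0.20 (adjusted p = 0.0458) and 0.77 (adjusted p = 0.00142). Itgb1 is the least secure of the 3, since its call was lost when the mitochondrial genes were left out of the TPM (0.30, adjusted p = 0.0559) and in 11 of the 16 fits that scaled the data and left out 1 library. Chordc1, the relative of melusin that is found in all tissues, was also higher, with 32.3 ± 2.33 against 21.1 ± 3.25 TPM (log2 fold change 0.62, adjusted p = 0.000678, and 0.27 with adjusted p = 0.0111 after scaling). Itgb1bp1, which shares the name but not the structure of melusin, was at 7.73 ± 0.61 and 7.55 ± 0.612 TPM in UBR4 mKO and WT muscles and was not called in TPM, and was lower after scaling (-0.31, adjusted p = 0.0442).

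The LIM genes were higher too, and 1 library stood out in them. Fhl1 was at 565, 975, 1017 and 706 TPM in WT and at 1564, 1538, 1851 and 2374 TPM in UBR4 mKO muscles at 6 months. Csrp3 was at 25.6, 49.1, 50.6 and 39.2 TPM in WT and at 70.1, 87.0, 85.0 and 178 TPM in UBR4 mKO muscles. WT and UBR4 mKO muscles were fully apart for both genes, and the highest value of both was in UBR4 mKO replicate 4, the library with little Y-linked RNA. The log2 fold change of Fhl1 was 1.19 (SE 0.188, limma adjusted p = 0.000333) and 1.05 (adjusted p = 0.00149) without that library. That of Csrp3 was 1.30 (SE 0.355, adjusted p = 0.00943) and 1.01 (adjusted p = 0.0381) without it. Fhl1 and Itgb1bp2 lie on chromosome X, and with the Y-linked covariate their log2 fold changes were 1.24 and 1.10. After scaling, Fhl1 was at 0.83 (adjusted p = 0.00328) and Csrp3 was at 0.95 and was not called (adjusted p = 0.0761), nor was it without mitochondrial genes (adjusted p = 0.0673).

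Among the ankyrin repeat genes, the change ran from large for Ankrd1 to small for Ankrd23. Ankrd1 was at 15.1, 19.7, 12.4 and 10.4 TPM in WT and at 66.0, 68.7, 54.0 and 66.6 TPM in UBR4 mKO muscles at 6 months. Ankrd2 was at 81.5, 135, 140 and 118 TPM in WT and at 283, 279, 289 and 446 TPM in UBR4 mKO muscles. Ankrd23 was at 1769, 1961, 1593 and 1436 TPM in WT and at 1969, 2025, 2078 and 2533 TPM in UBR4 mKO muscles, and the lowest UBR4 mKO muscle lay just above the highest WT muscle. The means of Ankrd1 differed by 4.43-fold, those of Ankrd2 by 2.73-fold and those of Ankrd23 by 1.27-fold. The log2 fold changes were 2.17 (SE 0.243, limma adjusted p = 2.65e-05) for Ankrd1, 1.45 (SE 0.22, adjusted p = 0.000252) for Ankrd2 and 0.35 (SE 0.0959, adjusted p = 0.00954) for Ankrd23. The value of Ankrd23 was near that of the median gene, and after scaling it was -0.0033 (adjusted p = 0.981). Ankrd1 and Ankrd2 were called also after scaling, at 1.82 (adjusted p = 0.000194) and 1.10 (adjusted p = 0.00385). Without UBR4 mKO replicate 4, which had the highest Ankrd2 and Ankrd23, the log2 fold changes were 1.29 for Ankrd2 and 0.27 for Ankrd23 (adjusted p = 0.00103 and 0.0382).

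Of the Xin genes, Xirp1 passed the test and Xirp2 did not. Xirp1 was at 25.8, 32.3, 24.1 and 17.99 TPM in WT and at 58.9, 50.0, 58.5 and 71.5 TPM in UBR4 mKO muscles at 6 months. Xirp2 was at 174, 230, 253 and 176 TPM in WT and at 239, 212, 232 and 276 TPM in UBR4 mKO muscles, and these groups overlapped. Xirp1 had a log2 fold change of 1.27 (SE 0.265, limma adjusted p = 0.00211; 0.92 and adjusted p = 0.0215 after scaling). The call after scaling was lost without UBR4 mKO replicate 1 (adjusted p = 0.0539) or WT replicate 4 of 6 months (adjusted p = 0.0661). Xirp2 had one of 0.21 (SE 0.143, adjusted p = 0.215), which was -0.14 after scaling, and it was called with array weights (adjusted p = 0.04).

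**Figure D2:**
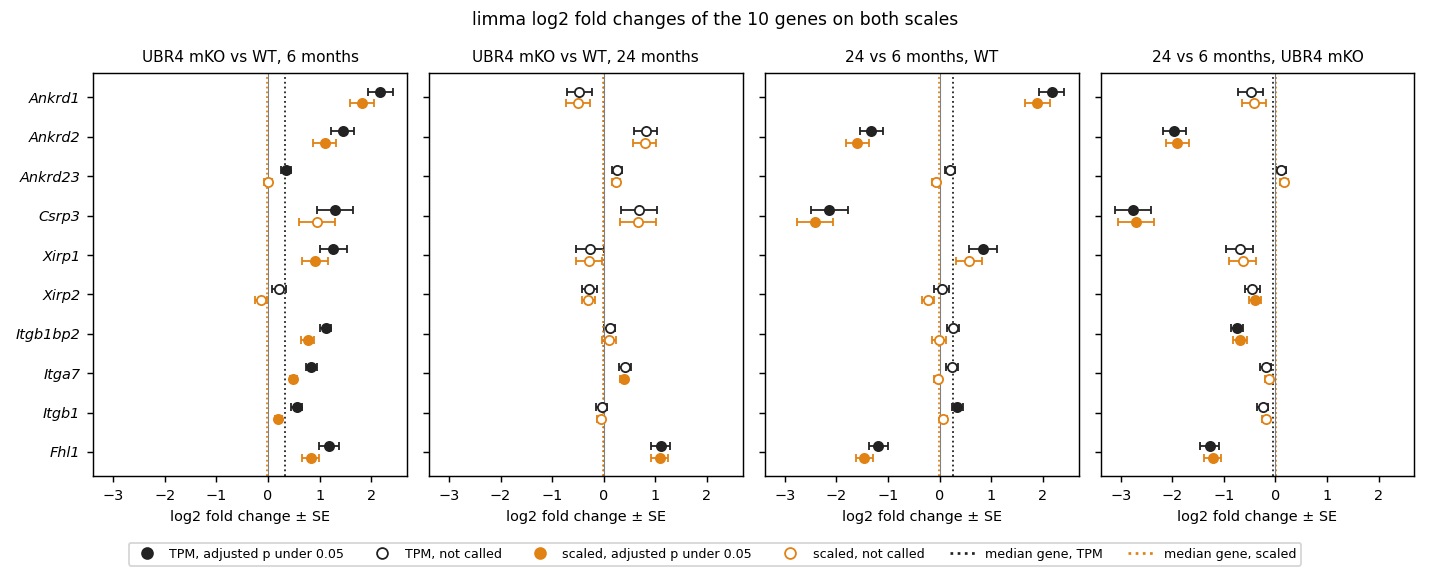
limma log2 fold changes with SE (horizontal axes) of the 10 genes in 4 comparisons, in TPM (black) and after median-of-ratios scaling (orange), with filled points where the adjusted p is under 0.05 and dotted lines at the median gene. At 6 months 9 genes lie above 0 with filled black points and 7 have filled orange points, and at 24 months Fhl1 is filled on both scales.

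Genes that work beside the 10 were followed as lists, whose counts at 6 months stand against 43.7% of all genes called higher in TPM and 6.64% after scaling. Of the ligands of integrins, 11 of 15 tested were higher in UBR4 mKO muscles at 6 months and 0 lower, with a median log2 fold change of 0.71 against 0.33 for all genes. They include the basement membrane collagen gene Col4a1 (50.8 ± 4.67 against 24.4 ± 5.36 TPM, adjusted p = 0.000131) and Spp1, the osteopontin gene (5.40 ± 5.19 against 1.45 ± 0.383 TPM, adjusted p = 0.0342, and 0.179 after scaling, where it was not called). Of the other integrin subunits, 4 of 9 were higher, and they include Itga5 (0.91, adjusted p = 0.000688) and Itgav (0.85, adjusted p = 0.00135), both receptor chains for fibronectin. Of the integrin adaptors and costamere proteins, 15 of 22 were higher, with Lims1, a partner of the integrin-linked kinase, at 1.13 (adjusted p = 0.000348) and the vinculin gene Vcl at 0.90 (adjusted p = 0.000657). Of the melusin partners, 7 of 10 were higher, with the chaperone gene Hsp90aa1 at 0.80 (adjusted p = 7.4e-05). After scaling, 3, 2, 5 and 2 genes of these lists were called higher and 1, 1, 2 and 1 lower.

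Of the Z-disc genes, 15 of 25 were higher in TPM and 2 after scaling, with Pdlim3 at 0.73 (adjusted p = 0.000242). Actn2, the α-actinin gene of the Z-disc, was at 0.76 in TPM (adjusted p = 0.000763) and was not called after scaling (0.40, adjusted p = 0.0707). Of the chaperones of tensed muscle, 9 of 12 were higher in TPM and 6 after scaling. In this list Hspb8, which works with the co-chaperone BAG3, rose from 173 ± 18.4 to 400 ± 20.8 TPM (log2 fold change 1.22, adjusted p = 1.17e-05), and Hspb7 had 1.04 (adjusted p = 0.00185). Of YAP, the TEAD factors and their targets other than the 10 genes, 5 of 14 were higher in TPM and 4 after scaling. Tead4 was at 0.87 (adjusted p = 0.00258) and was called after scaling too, and the receptor kinase gene Axl was at 0.83 (adjusted p = 0.00518) and was not (0.49, adjusted p = 0.102). Of the SRF, MRTF and MEF2 genes with their targets, 9 of 14 were higher in TPM and 1 after scaling. The actin gene of heart and developing muscle, Actc1, had the widest change of that list, at 2.69 (adjusted p = 0.00212; 2.33 and adjusted p = 0.0169 after scaling).

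Markers of fiber state and of other cells were read beside these values at 6 months. Of the regeneration and denervation genes, 10 of 11 were higher, with a median log2 fold change of 1.38, and 8 after scaling, when Runx1 was not among the genes tested. They include Sln, an inhibitor of the calcium pump (67.3 ± 25.4 against 4.67 ± 0.402 TPM, adjusted p = 3.11e-06), and Rrad, an inhibitor of calcium channels (17.99 ± 6.4 against 1.19 ± 0.487 TPM, adjusted p = 1.45e-05). The leukocyte markers summed to 13.9 to 20.5 TPM in WT and to 46.8 to 160 TPM in UBR4 mKO muscles, and 4 of 4 tested were higher on both scales, Cd68 and Lyz2 among them. Of the slow myofiber genes, 2 of 9 were higher (Tnni1 at 1.44 and Atp2a2 at 0.84), and the list summed to 125 to 223 TPM in WT and to 124 to 250 TPM in UBR4 mKO muscles. The highest of these sums was in UBR4 mKO replicate 4, the library with the highest Csrp3, Ankrd2 and Fhl1. Of the fast myofiber genes, 5 of 11 were higher in TPM, and 1 was higher and 3 lower after scaling. Of the markers of endothelial cells 5 of 6, of fibroblasts 4 of 6, of smooth muscle cells 1 of 5 and of skeletal myofibers 4 of 7 were higher in TPM (0, 1, 0 and 1 after scaling, with 0, 0, 1 and 2 lower), and of the tested markers of tendon cells (4), satellite cells (1), adipocytes (2), Schwann cells (4) and blood (5) 0 were called in TPM (2 of the Schwann cell markers were lower after scaling). The part of these other cells and fiber states in the values of the 10 genes was not tested. In bulk muscle RNA, fewer cells of a type and less RNA per cell cannot be told apart.

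**Figure D3:**
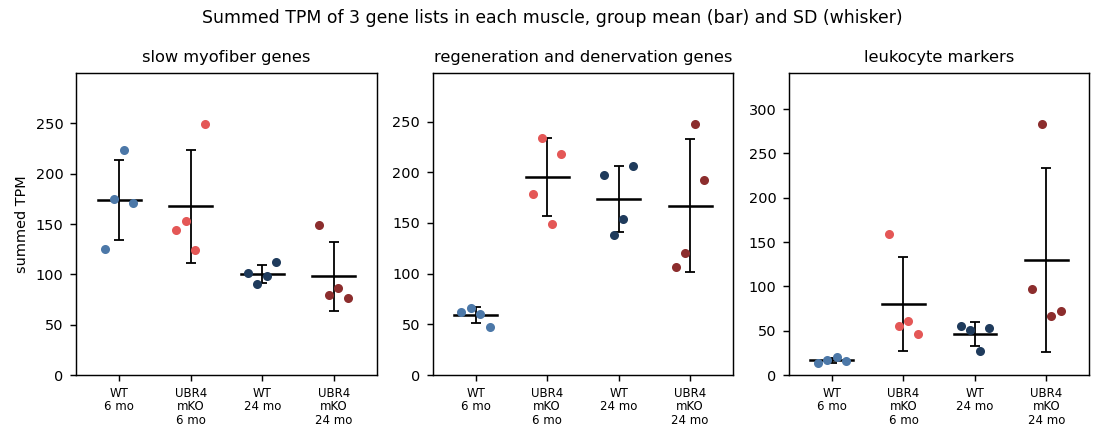
Summed TPM (vertical axes, from 0) of the slow myofiber genes, the regeneration and denervation genes and the leukocyte markers in each muscle, with group mean as a bar and SD as a whisker. The regeneration and denervation genes sum to 47.5 to 65.9 TPM in WT muscles of 6 months and to at least 107 TPM in every other muscle.

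At 24 months the same comparison asks what a longer loss of UBR4 does in old muscle, and 1 of the 10 genes was called. Fhl1 was at 377, 352, 330 and 332 TPM in WT and at 741, 692, 580 and 1039 TPM in UBR4 mKO muscles, with every UBR4 mKO muscle above every WT muscle. Its log2 fold change was 1.10 (SE 0.188, limma adjusted p = 0.0208; 1.08 and adjusted p = 0.00549 after scaling). Over all genes 0.63% were called, and 0.433% were called higher (0.915% and 0.415% after scaling, when 2 of the 10 genes were called higher). The first share is 67 genes in TPM, against 8, 11 and 12 genes without WT replicate 3, WT replicate 4 and UBR4 mKO replicate 4 of 24 months. In the same fits, the call of Fhl1 was lost when WT replicate 3 (adjusted p = 0.0652), WT replicate 4 (adjusted p = 0.0543) or UBR4 mKO replicate 4 of 24 months (adjusted p = 0.056) was left out, and it was kept after scaling in each of these fits. The exact permutation test over the 8 muscles gave p = 0.0286, the smallest value that 4 against 4 allow.

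Itga7 was at 28.2, 25.6, 25.4 and 26.4 TPM in WT and at 35.3, 33.7, 29.6 and 43.3 TPM in UBR4 mKO muscles of 24 months. These groups did not overlap either, which holds, in the direction of higher UBR4 mKO muscles, for 2 of the 10 genes and for 4.29% of all genes. The log2 fold change of Itga7 was 0.41 (SE 0.108, limma adjusted p = 0.11), and it was called after scaling (0.39, adjusted p = 0.0145) and without UBR4 mKO replicate 3 (0.49, adjusted p = 0.0391). Itga7 lost its call after scaling when WT replicate 4 of 24 months was left out. Its partner chain Itgb1 was at 67.6, 76.7, 66.4 and 75.7 TPM in WT and at 79.2, 70.5, 57.0 and 74.1 TPM in UBR4 mKO muscles, and the groups lay over each other. Itgb1bp2 was at 121, 97.7, 126 and 121 TPM in WT and at 128, 110, 143 and 123 TPM in UBR4 mKO muscles. These 2 genes had log2 fold changes of -0.04 and 0.12, and neither was called (adjusted p = 0.979 and 0.845).

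The ankyrin repeat genes took different sides of WT at 24 months without passing the test. Ankrd1 was at 86.2, 52.7, 66.0 and 53.7 TPM in WT and at 30.6, 36.0, 50.8 and 77.2 TPM in UBR4 mKO muscles (log2 fold change -0.47, adjusted p = 0.552). Ankrd2 was at 66.7, 54.4, 35.9 and 35.6 TPM in WT and at 79.7, 62.4, 89.2 and 100 TPM in UBR4 mKO muscles (0.81, adjusted p = 0.131). Ankrd2 thus overlapped between the genotypes in 1 muscle of each side. Ankrd23 was at 2122, 1800, 1911 and 1886 TPM in WT and at 2419, 2347, 2096 and 2365 TPM in UBR4 mKO muscles (0.26, adjusted p = 0.314). Csrp3 was at 14.8, 11.7, 7.90 and 4.69 TPM in WT and at 17.2, 8.54, 13.3 and 21.9 TPM in UBR4 mKO muscles (0.68, adjusted p = 0.565). The spread of Csrp3 was wide, with a coefficient of variation of 45.0% in WT.

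Xirp1 had 1 high muscle at 24 months. It was at 36.4, 92.7, 30.2 and 36.6 TPM in WT and at 31.1, 38.6, 32.4 and 45.8 TPM in UBR4 mKO muscles (log2 fold change -0.27, limma adjusted p = 0.859, and 0.09 without WT replicate 2). Xirp2 was at 208, 197, 230 and 214 TPM in WT and at 219, 191, 132 and 169 TPM in UBR4 mKO muscles (-0.28, adjusted p = 0.554). Of all genes of the pathway lists, 2 were called at 24 months in TPM, Fhl3 and Hspb6. After scaling, 1 of the Z-disc genes was called higher, 0 of the chaperones, and 1 of the other integrin subunits lower. Fhl3, a relative of Fhl1, was at 239 ± 44.5 TPM in UBR4 mKO and 138 ± 9.33 TPM in WT muscles (log2 fold change 0.78, adjusted p = 0.0127). The small heat shock gene Hspb6 was at 633 ± 46.3 and 433 ± 2.64 TPM (0.54, adjusted p = 0.0377) and was not called after scaling. The leukocyte markers summed to 26.6 to 55.1 TPM in WT and to 66.1 to 284 TPM in UBR4 mKO muscles of 24 months, and 0 of the 4 tested were called. The adipocyte markers summed to 7.43 to 18.6 TPM in WT and to 11.05 to 67.2 TPM in UBR4 mKO muscles, and the tendon cell markers to 44.7 to 82.15 and 27.5 to 55.3 TPM. The tested genes of these lists had median log2 fold changes of 1.10 (leukocytes), 1.23 (adipocytes) and -0.62 (tendon cells). The slow myofiber genes summed to 90.0 to 112 TPM in WT and to 76.4 to 149 TPM in UBR4 mKO muscles, and the regeneration and denervation genes to 138 to 206 and 107 to 248 TPM. Of the fiber state lists and of the markers of all cell types, 0 genes were called on either scale, and their part in the values of Fhl1 and Itga7 was not tested.

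Age was then compared within WT, which asks how the genes differ between young and old muscle with intact Ubr4. Of the 10 genes, 6 were called, of which Ankrd1, Xirp1 and Itgb1 were higher and Ankrd2, Csrp3 and Fhl1 lower at 24 months. Over all genes 25.1% were called, 24.0% higher and 1.07% lower, with a shift of 0.26 (log2) for the median gene. After scaling, Ankrd1 was called higher and Ankrd2, Csrp3 and Fhl1 lower, against 4.42% of all genes higher and 5.35% lower (9.77% in all). The libraries of the ages also differ in Xist and in Y-linked RNA, as given above, and with Y-linked expression as a covariate these 4 calls held. The covariate cannot settle the matter, since the Y-linked sums of WT were 4.36 to 25.5 TPM at 6 and 34.7 to 40.5 TPM at 24 months. Xist did not overlap between the ages in either genotype and was not modelled. Age and this difference of the libraries cannot be told apart.

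Ankrd1 rose from 10.4 to 19.7 TPM in the muscles of 6 months to 52.7 to 86.2 TPM in those of 24 months, a 4.49-fold difference of means (log2 fold change 2.17, SE 0.243, limma adjusted p = 3.4e-05). After scaling it was 1.90 (adjusted p = 0.000144). Ankrd2 went the other way, from 81.5 to 140 TPM down to 35.6 to 66.7 TPM (-1.32, SE 0.22, adjusted p = 0.00086). Both genes had no overlap between the ages, so close relatives that bind the same filament changed in opposite directions, on both scales. Csrp3 fell from 25.6 to 50.6 TPM down to 4.69 to 14.8 TPM (-2.14, SE 0.355, adjusted p = 0.00083). Fhl1 fell from 565 to 1017 TPM down to 330 to 377 TPM (-1.19, SE 0.188, adjusted p = 0.000546). In all, 2 of the 10 genes were higher and 3 lower with no overlap, against 24.1% and 1.83% of all genes.

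The other 2 calls with age in WT were weak. Xirp1 had a log2 fold change of 0.84 (limma adjusted p = 0.0311), of 0.48 (adjusted p = 0.0629) without WT replicate 2 of 24 months, its highest value, and of 0.56 (adjusted p = 0.172) after scaling. With the Y-linked covariate on a linear scale, chosen after seeing the data, it was not called either (adjusted p = 0.113). The call of Xirp1 was also lost without WT replicate 4 of 24 months (adjusted p = 0.0522) and without WT replicates 1, 3 or 4 of 6 months (adjusted p = 0.0519, 0.0693 and 0.125). Itgb1 had 0.35 (adjusted p = 0.0295), and 0.07 (adjusted p = 0.53) after scaling. It was lost without WT replicates 1, 2 or 4 of 24 months (adjusted p = 0.0511, 0.0689 and 0.0855) and without WT replicates 1, 3 or 4 of 6 months (adjusted p = 0.0655, 0.0581 and 0.117), and with the Y-linked covariate (adjusted p = 0.0542, and 0.154 on a linear scale). Ankrd23 (0.20), Itgb1bp2 (0.26) and Itga7 (0.24), near the 0.26 of the median gene, and Xirp2 (0.04), below it, were not called. Leaving out WT replicate 2 of 6 months brought Ankrd23 and Itga7 past the threshold (adjusted p = 0.0296 and 0.0459), and leaving out WT replicate 2 of 24 months did so for Itgb1bp2 (adjusted p = 0.0405).

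Beside these values, 9 of 11 regeneration and denervation genes were higher in old WT muscles, with a median log2 fold change of 1.42 (6 after scaling, without Runx1, which was then not tested), led by Rrad (27.1 ± 8.18 against 1.19 ± 0.487 TPM, adjusted p = 3.3e-06) and Runx1 (1.57 ± 0.143 against 0.215 ± 0.0408 TPM, adjusted p = 3.56e-06). Slow myofiber genes summed to 90.0 to 112 TPM at 24 months, below the 125 to 223 TPM of 6 months. The light chain genes of slow fibers Myl2 (-1.84, adjusted p = 0.0134) and Myl3 (-1.26, adjusted p = 0.00933) were lower, and 1 other of the 9, Atp2a2, was higher in TPM (0.55, adjusted p = 0.0188) and was not called after scaling (0.28, adjusted p = 0.0775). After scaling, 0 of the slow myofiber genes were higher and 3 lower. Of the Z-disc genes, 7 of 25 were higher and 3 lower in TPM (1 and 5 after scaling), among the latter Myoz2, a Z-disc gene of slow fibers (10.7 ± 1.28 against 37.4 ± 15.5 TPM, adjusted p = 0.000291), and Actn2 (-0.60, adjusted p = 0.00695). The part of the fiber types in the fall of Ankrd2, Csrp3 and Fhl1 was not tested. Of the other pathway and fiber lists, the higher and lower calls in TPM were 0 and 0 of 15 integrin ligands, 2 and 0 of 9 integrin subunits, 6 and 0 of 22 adaptors, 6 and 0 of 10 melusin partners, 3 and 0 of 12 chaperones, 2 and 0 of 14 YAP and TEAD genes, 3 and 1 of 14 SRF, MRTF and MEF2 genes and 7 and 2 of 11 fast myofiber genes. After scaling, which takes out the 0.26 shift of the median gene, they were 0 and 2, 0 and 0, 1 and 2, 1 and 0, 1 and 1, 1 and 0, 1 and 1, and 1 and 2 in the same order. In the YAP and TEAD list, Yap1 itself was at 11.8 ± 0.5 TPM in old and 7.98 ± 1.35 TPM in young WT muscles (0.58, adjusted p = 0.00642). The leukocyte markers summed to 13.9 to 20.5 TPM in young and to 26.6 to 55.1 TPM in old WT muscles, and 2 of 4 were higher (1 after scaling). Of the markers of skeletal myofibers 6 of 7 were higher and 1 lower (1 and 1 after scaling), and of those of Schwann cells 1 of 4 was higher (0 after scaling). Of the markers of fibroblasts 1 of 6 was lower on both scales, and of those of endothelial cells 0 of 6 were called in TPM and 4 were lower after scaling. Of the tendon and smooth muscle cell markers 0 were called in TPM and 1 each was lower after scaling, and of those of satellite cells, adipocytes and blood 0 were called on either scale. The part of these cells in the values of the 10 genes was not tested.

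Age within UBR4 mKO muscles, a comparison that shares its libraries with those above, gave 4 calls, all lower at 24 months. Ankrd2 had a log2 fold change of -1.96 (SE 0.22, limma adjusted p = 5.2e-05), Csrp3 of -2.76 (SE 0.355, adjusted p = 0.000186), Fhl1 of -1.27 (SE 0.188, adjusted p = 0.000558) and Itgb1bp2 of -0.75 (SE 0.109, adjusted p = 0.000545). Over all genes 6.29% were called, and 3.85% were called lower. Without UBR4 mKO replicate 4 of 6 months, the values were -1.80, -2.47, -1.14 and -0.82, and all 4 genes were still called. The means of Csrp3 fell 6.9-fold, from 105 ± 49.5 to 15.2 ± 5.69 TPM. Ankrd1 was at 63.8 ± 6.67 and 48.6 ± 20.9 TPM and was not called (-0.48, adjusted p = 0.293). Without overlap of the ages, 6 of the 10 genes and 8.49% of all genes were lower, and the 6 are the 4 called genes, Xirp1 (-0.70, adjusted p = 0.142, and 0.0177 without WT replicate 2 of 24 months) and Itgb1 (-0.25, adjusted p = 0.209). After scaling, Xirp2 was called too (-0.39, adjusted p = 0.0451), as it was in TPM without UBR4 mKO replicate 1 of 24 months (adjusted p = 0.028), and 5 genes were then lower, against 5.31% of all genes lower and 11.3% called in all. Of the slow myofiber genes, 2 of 9 were lower and 3 after scaling, with a median log2 fold change of -0.87 in TPM, and they summed to 124 to 250 TPM at 6 and to 76.4 to 149 TPM at 24 months. Of the markers of endothelial cells 4 of 6, of tendon cells 2 of 4 and of fibroblasts 2 of 6 were lower on both scales, and of those of leukocytes, smooth muscle cells, satellite cells, adipocytes, Schwann cells and blood 0 were called. Of the regeneration and denervation genes, 1 of 11 was higher and 2 lower on both scales, of the fast myofiber genes 3 of 11 were higher and 3 lower (1 and 2 after scaling), and of the markers of skeletal myofibers 2 of 7 were higher and 1 lower (1 and 0 after scaling). The part of these cells and fiber states in the 4 calls was not tested.

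The interaction of genotype and age, which tests whether the difference between genotypes is itself different at the ages, was called for 4 of the 10 genes, all with a smaller difference at 24 months. Over all genes 4.7% were called and 4.58% in that direction, and the median gene had -0.31. After scaling 1 of the 10 genes was called, against 1.96% of all genes (0.953% in that direction). Ankrd1 had -2.65 (SE 0.344, limma adjusted p = 0.000597), and it was called after scaling (-2.32, adjusted p = 0.00351) and in every alternative fit run for the interaction. Itgb1bp2 had -1.0 (SE 0.153, adjusted p = 0.0021), and after scaling -0.67 (adjusted p = 0.0762). After scaling it was called without UBR4 mKO replicate 4 of 6 months or UBR4 mKO replicate 3 of 24 months, and not without any other single library. Xirp1 had -1.53 (SE 0.374, adjusted p = 0.0307) and Itgb1 -0.59 (SE 0.152, adjusted p = 0.0379), and both were lost after scaling (adjusted p = 0.0932 and 0.152). Itgb1 was also lost with the Y-linked covariate on a linear scale (adjusted p = 0.0534) and with the replicate number as a block (adjusted p = 0.0564). Leaving out single libraries of 7 of the 16 ended the call of Xirp1 (adjusted p of 0.0517 to 0.0784), and of 11 of the 16 that of Itgb1 (0.0552 to 0.0815). Among them for both genes was UBR4 mKO replicate 4 of 6 months (adjusted p = 0.0605 for Xirp1 and 0.0669 for Itgb1). Itga7 had -0.43 (adjusted p = 0.0937), and was called without UBR4 mKO replicate 4 of 24 months (adjusted p = 0.0361) or WT replicate 2 of 6 months (adjusted p = 0.039). Fhl1 had -0.08 (adjusted p = 0.826), with log2 fold changes between genotypes of 1.19 at 6 and 1.10 at 24 months. With array weights, Ankrd2 and Itga7 were called too (adjusted p = 0.0178 and 0.029).

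Of the regeneration and denervation genes, 7 of 11 were lower in the interaction, with a median of -1.43 against -0.31 for all genes, and 3 after scaling, when Runx1 was not tested. Among the 7 are Rrad (-4.31, limma adjusted p = 0.000597), Sln (-3.49, adjusted p = 0.000597) and Myog (-2.65, adjusted p = 0.00218). Of the slow myofiber genes 2 of 9, of the fast 3 of 11 and of the markers of skeletal myofibers 3 of 7 were lower (1, 0 and 0 after scaling). Of the markers of the other cell types 0 were called. The part of the fiber states in the 4 interaction calls was not tested.

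The level of Ankrd1 thus had the order WT of 24 months (64.7 ± 15.6 TPM), UBR4 mKO of 6 months (63.8 ± 6.67), UBR4 mKO of 24 months (48.6 ± 20.9) and WT of 6 months (14.4 ± 4.02). Its first 3 groups overlapped, and only young WT muscles stood apart. Fhl1 had the order UBR4 mKO of 6 months (1832 ± 388 TPM), WT of 6 months (816 ± 217), UBR4 mKO of 24 months (763 ± 196) and WT of 24 months (348 ± 21.5), and the middle pair overlapped. For Csrp3 and Ankrd2 the order of groups was the same as for Fhl1, but old WT and old UBR4 mKO muscles overlapped, and young WT and old UBR4 mKO muscles overlapped for Ankrd2 and not for Csrp3. For Itga7 both UBR4 mKO groups overlapped and lay above both WT groups. Itgb1bp2 stood apart in young UBR4 mKO muscles (212 ± 31.9 TPM) from the other groups, whose means were between 97.0 and 126 TPM. Neighbouring groups overlapped at every step of the order for Xirp1, Xirp2 and Ankrd23.

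Ratios between genes of the same muscle do not depend on how a library is scaled, and 5 of them were compared in 4 ways each, 20 tests in all. With 4 against 4 muscles the smallest exact permutation p is 0.0286, and after Benjamini-Hochberg adjustment over the 20 tests the smallest value was 0.0571, so no ratio passed 0.05. The ratio of Itga7 to Itgb1 was 0.372 to 0.444 in WT and 0.459 to 0.504 in UBR4 mKO muscles at 6 months, and 0.335 to 0.419 against 0.446 to 0.586 at 24 months. It was higher in UBR4 mKO muscles without overlap at both ages, by 1.22-fold and 1.36-fold (exact permutation test, two-sided, p = 0.0286 each, adjusted p = 0.0571). The ratio of Itgb1bp2 to Itgb1 was 1.48-fold higher in UBR4 mKO muscles at 6 months (2.14 to 3.17 against 1.53 to 1.85) and overlapped at 24 months.

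Of the 5 ratios, that of Ankrd1 to Ankrd2 had the widest difference in a comparison. It was 0.0888 to 0.187 in WT at 6 months and 0.969 to 1.84 in WT at 24 months, an 11.3-fold difference with no overlap (exact permutation p = 0.0286, adjusted p = 0.0571). In UBR4 mKO muscles it was 0.15 to 0.247 at 6 months and 0.385 to 0.77 at 24 months, a 2.79-fold difference, also with no overlap. At 24 months all UBR4 mKO muscles had a lower ratio than all WT muscles (0.41-fold, exact permutation p = 0.0286, adjusted p = 0.0571). The ratio of Ankrd23 to Ankrd2 was 0.467-fold in UBR4 mKO against WT muscles at 6 months, and 2.87-fold and 4.18-fold with age in WT and in UBR4 mKO muscles. The ratio of Xirp1 to Xirp2 was 2.08-fold higher in UBR4 mKO muscles at 6 months (0.236 to 0.26 against 0.0955 to 0.148) and was 1.01-fold at 24 months.

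**Figure D4:**
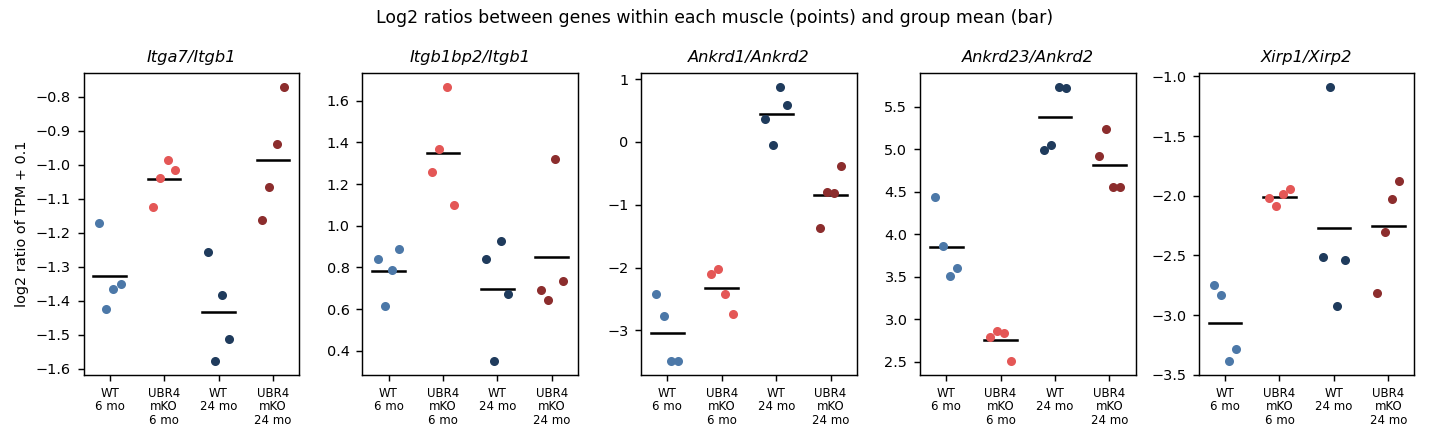
Log2 ratios of TPM + 0.1 between pairs of genes in each muscle (points) with the group mean (bar), for the 4 groups. For Ankrd1 to Ankrd2 the WT muscles lie between -3.49 and -2.42 at 6 months and between -0.045 and 0.876 at 24 months, and the UBR4 mKO muscles of 24 months lie between -1.38 and -0.377.

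The genes with the pattern most like Ankrd1 over the 16 muscles, by Pearson correlation of log2 values, were Myog (r = 0.949, Spearman 0.938), the myogenin gene of muscle differentiation, Chrnb1 (r = 0.949, Spearman 0.862), a subunit of the acetylcholine receptor, and Ankrd10 (r = 0.948, Spearman 0.909). Myog was at 2.60 ± 1.01 TPM in young WT muscles and between 7.35 TPM (old UBR4 mKO) and 11.5 TPM (young UBR4 mKO) on average in the other 3 groups, with old WT muscles in between. Young WT muscles were lowest for both Myog and Ankrd1, and the highest mean was in young UBR4 mKO muscles for Myog and in old WT muscles for Ankrd1. For Itgb1bp2 the most similar were Eno1, an enzyme of glycolysis (r = 0.973, Spearman 0.921), Tmem25 (r = 0.966, Spearman 0.962) and Ccdc163 (r = 0.949, Spearman 0.906). Eno1 was at 35.3 ± 5.59 TPM in young UBR4 mKO muscles and between 17.9 and 22.6 TPM on average in the other groups. These correlations describe 16 libraries that fall into 4 groups and share the scaling of TPM.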

How the data were processed

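TPM values of 16 mouse tibialis anterior muscles were used as deposited. Per the study's methods, the authors mapped trimmed read pairs to GRCm38 (mm10) and calculated TPM with CLC Genomics Workbench, and the rule for reads shared between genes is not given in the sources used here. The labels name a stranded and the methods another TruSeq kit. Read depth is unknown, so no counting error can be given.

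Groups came from the labels. Genes with a mean of at least 1 TPM (10628) were fitted with limma 3.58.1 (R 4.3.3) on log2(TPM + 0.1), with 1 coefficient per group, a trended variance and Benjamini-Hochberg adjustment over all genes, at a threshold of 0.05. Fold changes are on that log2 scale. Single values and ratios used exact two-sided permutation tests over the 70 assignments. The limma p-values rest on the spread of samples within groups, moderated across genes, and the exact p-values on the assignments of these samples alone. Median-of-ratios scaling used the 14470 genes above 0 in every muscle. On simulated data with 200 changed genes, the code was tested before use. Near copies were sought with minimap2 2.31. Figures and tests used Python 3.11.15, scipy 1.17.1 and matplotlib 3.10.9.

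The 10 genes and the gene lists were chosen with earlier results of these data known. Named genes are the 10, Ubr4, Chordc1, Itgb1bp1, up to 2 called genes per list with the largest rise and fall at 6 months and with age in WT, list genes called at 24 months, and the 3 genes most correlated with Ankrd1 and with Itgb1bp2. Correlations of same-numbered samples did not pair the groups.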

Additional observations from a re-analysis of the deposited data

Results flagged for a closer look

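In 40 groups of 4 muscles, the gap of the highest or lowest muscle to its neighbour was compared with the range of the group, by Dixon's 95% critical value, which chance passes in about 2 of 40 groups. On the log2 scale 2 and in TPM 3 groups passed. Ankrd2 in UBR4 mKO replicate 4 of 6 months (446 TPM) was far above its group on both scales, and Csrp3 in the same library (178 TPM) was so in TPM. This library also had little Y-linked RNA and the highest sum of slow myofiber genes of its group, and the part of these in the values was not tested. Xirp1 in WT replicate 2 of 24 months (92.7 TPM) was far above its group in TPM. Ankrd1 in UBR4 mKO replicate 3 of 6 months (54.0 TPM) was below its group on the log2 scale.

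The difference between UBR4 mKO and WT muscles was itself different at 24 and 6 months, by the interaction term in limma, for Ankrd1 (-2.65, adjusted p = 0.000597), Xirp1 (-1.53, adjusted p = 0.0307), Itgb1bp2 (-1.0, adjusted p = 0.0021) and Itgb1 (-0.592, adjusted p = 0.0379). After median-of-ratios scaling, only that of Ankrd1 was called among these 4. That of Itgb1bp2 was then called without UBR4 mKO replicate 4 of 6 months or UBR4 mKO replicate 3 of 24 months, and not without any other single library.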

How the results depend on the processing

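Of the 10 genes, 9 were called between genotypes at 6 months, and 5 with the Dunn test and 5 to 9 over the fits that left out 1 library, in TPM and after scaling. With array weights all 10 were called, as were 6814 of all 10628 genes, against 4767 without the weights. At 24 months the count was 1, and 2 after median-of-ratios scaling, 2 with array weights, 0 with the Dunn test (which calls 0 at an unadjusted p under 0.05) and 0 to 2 over the fits that left out 1 library. The Dunn test called 0 genes with age in WT and 0 in UBR4 mKO muscles (3 in each at an unadjusted p under 0.05), against 6 and 4 with limma, and array weights called 9 and 4. For the interaction the count was 4, and 2 with no minimum level, 1 after scaling, 2 without mitochondrial genes, 6 with array weights and 1 to 5 without 1 library.

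Some log2 fold changes changed sign. At 6 months, Ankrd23 was at -0.0033 after scaling (-0.051 to 0.43 without 1 library), Xirp2 at -0.14 after scaling and -0.042 without mitochondrial genes (-0.22 to 0.31), and Itgb1bp1 at -0.045 with array weights, -0.31 after scaling and -0.22 without mitochondrial genes (-0.36 to 0.070). At 24 months, Itgb1 was at 0.091 with array weights (-0.098 to 0.060 without 1 library), Xirp1 ran from -0.45 to 0.093 and Itgb1bp2 from -0.026 to 0.18. With age in WT, scaling gave -0.076 for Ankrd23 (-0.11 to 0.27), -0.23 for Xirp2 (-0.32 to 0.14), -0.016 for Itgb1bp2 (-0.080 to 0.34) and -0.033 for Itga7 (-0.061 to 0.29), and Xirp2 was at -0.15 without mitochondrial genes and had a Dunn z of -0.074. For the interaction, scaling and leaving out mitochondrial genes gave 0.24 and 0.12 for Ankrd23 (-0.17 to 0.29) and 0.25 and 0.13 for Fhl1 (-0.24 to 0.42). The cause was not tested.

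Over all genes, scaling changed the split at 6 months from 4645 higher and 122 lower to 704 and 1082, with age in WT from 2555 and 114 to 468 and 567, with age in UBR4 mKO muscles from 260 and 409 to 634 and 563, at 24 months from 46 and 21 to 44 and 53, and for the interaction from 13 and 487 to 107 and 101. Without mitochondrial genes it was 1116 and 648, 678 and 447, 526 and 579, 36 and 37, and 81 and 150 in the same order. Other counts of called genes moved by over 1.5 times with array weights (254 at 24 months, 6531 with age in WT, 1743 with age in UBR4 mKO muscles and 2861 for the interaction, against 67, 2669, 669 and 500), with no minimum level (43 at 24 months, 299 for the interaction), with only the groups compared (8 at 24 months, 439 with age in UBR4 mKO muscles) and with the linear Y-linked covariate, an alternative chosen after seeing the data (27, 863 and 323 at 24 months, with age in WT and for the interaction). Leaving out 1 library moved the counts in TPM, to between 2737 (without WT replicate 4 of 6 months) and 6239 at 6 months, 8 (WT replicate 3 of 24 months) and 66 at 24 months, 974 (WT replicate 4 of 6 months) and 4973 (WT replicate 2 of 6 months) with age in WT, 374 (UBR4 mKO replicate 3 of 6 months) and 774 with age in UBR4 mKO muscles, and 187 (WT replicate 1 of 24 months) and 2491 (WT replicate 2 of 6 months) for the interaction. After scaling the ranges were 1063 to 2977, 28 to 130, 507 to 1998, 669 to 1570 and 77 to 357.

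With the replicate number as a block, 9, 1, 6, 4 and 3 of the 10 genes were called in the 5 comparisons. Over all genes 4236, 38, 2023, 532 and 284 were then called, against 4767, 67, 2669, 669 and 500 without the block. Same-numbered samples correlated between -0.35 and 0.181, so the numbers did not pair them. A fit without all libraries that go against the male label was not run, since no WT library of 6 months would remain. With 4 muscles a group and unknown depth, small differences of scarce transcripts may have been missed, and the limit of detection was not measured.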
